A study of Mus musculus with 9 samples.

Results

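The genes of the activator protein 1 (AP-1) subunits were followed in bone callus collected on day 7 after femoral fracture. The 9 genes Fos, Fosb, Fosl1, Fosl2, Jun, Junb, Jund, Atf3 and Batf were taken by their symbols from a table of 22054 genes, and each was present. RNA was sequenced from 9 libraries, 3 in each of 3 groups. Every mouse was a male C57BL/6J animal, aged 7 weeks by the labels, with a surgical fracture, and received 200 μl intraperitoneally each day for 1 week from the day after the operation. The H-151 group was given 750 nmol of H-151, a small molecule that binds STING and blocks its signaling. The SR-717 group was given 30 mg/kg of SR-717, a small molecule that activates STING in place of its natural ligand cGAMP, and the PBS group was given the saline buffer alone. The labels call each library a replicate biosample and do not say whether callus from several mice was pooled. Whole callus was used, so that fewer cells of a type and less RNA per cell cannot be told apart in any value given here.

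AP-1 is a dimer of basic leucine zipper proteins. A JUN protein pairs with a FOS, ATF or BATF protein, or with another JUN protein, and the dimer binds a short DNA element known as the TRE or, with ATF partners, the related CRE. Most of these genes are immediate early genes, which are transcribed within minutes of a growth factor, cytokine, stress or mechanical signal, through MAP kinases that act on factors already bound to their promoters. In bone, c-Fos, the product of Fos, is required for the osteoclast to form under RANKL, and Fra-1 and Fra-2, the products of Fosl1 and Fosl2, act in both osteoblasts and osteoclasts.

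The promoters of these genes are shown because the elements that AP-1 and its relatives bind can lie in them. RefSeq promoter windows of GRCm38.p6, from 250 bases before to 50 bases after the transcription start, were found for 8 of the 9 members, all but Fosl1. Their starts are those of RefSeq. They lie within 51 bases of the GENCODE start in Fos, Fosb, Jun, Junb and Batf, but 671 bases inside the GENCODE gene in Fosl2, 34706 bases inside it in Atf3, which has several starts, and 1210 bases before it in Jund, so that these 3 windows need not be the promoter in use. The 150 bases before the start are given for 4 members in the direction of transcription. Capitals mark TGACG, the first letters of a CRE, in Fos, Fosb and Junb, TATAAA in Fos, and TGACATCA, an element with 1 letter more than a TRE, in Jun. The regions are chr12:85473740-85473889 on the plus strand for Fos, chr7:19310046-19310195 on the minus strand for Fosb, chr4:95052223-95052372 on the minus strand for Jun and chr8:84978749-84978898 on the minus strand for Junb.
Fos: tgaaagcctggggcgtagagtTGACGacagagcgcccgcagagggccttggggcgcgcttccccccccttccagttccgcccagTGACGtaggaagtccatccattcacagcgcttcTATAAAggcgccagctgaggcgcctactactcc
Fosb: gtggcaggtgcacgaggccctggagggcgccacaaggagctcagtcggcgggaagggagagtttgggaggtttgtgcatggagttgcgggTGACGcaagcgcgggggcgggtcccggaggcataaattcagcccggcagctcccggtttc
Jun: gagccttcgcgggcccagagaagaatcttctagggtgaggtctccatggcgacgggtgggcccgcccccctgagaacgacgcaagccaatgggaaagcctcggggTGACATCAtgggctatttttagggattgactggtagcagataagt
Junb: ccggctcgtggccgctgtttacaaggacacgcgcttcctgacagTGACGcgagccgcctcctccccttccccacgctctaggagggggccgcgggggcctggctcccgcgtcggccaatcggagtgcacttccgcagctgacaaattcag

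Both strands of the windows were searched for these letters. The TRE TGACTCA was in none of the 8 windows and in 5.20% of 32851 promoters, and the full CRE TGACGTCA was likewise in none and in 1.79% of all. TGACATCA was in Jun alone among the members, at bases -45 to -38 from the start, and in 3.62% of all promoters. TGACG, which is also part of every full CRE, was in 5 members and in 20.8% of all promoters. It began at bases -129 and -66 in Fos, -60 in Fosb, -106 in Junb and -98 in Batf, and its reverse complement CGTCA lay at bases -7 to -3 in Atf3. TATAAA was in Fos, at bases -33 to -28, and in Junb, and in 13.6% of all promoters. In Junb it lay at bases 1 to 6 from the RefSeq start, which is 30 bases before the GENCODE start. These are matches of letters and no factor was measured on them.

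In the GENCODE annotation of GRCm38, Fos lies at chr12:85473890-85477273 on the plus strand, and Batf lies on the same chromosome and strand at chr12:85686669-85709087. Jun (chr4:95049034-95052222, minus strand), Junb (chr8:84974484-84978718, minus strand) and Jund (chr8:70698949-70700616, plus strand) have 1 exon each. Fosb lies at chr7:19302696-19310051 on the minus strand, Fosl2 at chr5:32135801-32157842 on the plus strand, Fosl1 at chr19:5447547-5455946 on the plus strand and Atf3 at chr1:191170296-191218039 on the minus strand. An annotated gene on the opposite strand overlaps Fosl1 (Ccdc85b), Jun (Junos), Junb (Prdx2), Jund (Gm11175) and Atf3 (Gm24748). The libraries kept the strand, but whether counting used it is not stated, so the counts of these 5 genes are uncertain to that extent.

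The 9 libraries held between 16987398 and 23272480 counts. The first principal component of all genes (46.6% of the variance) placed SR-717 replicate 1 at 100.6, PBS replicate 1 at 38.8 and the other 7 libraries between -28.8 and -4.03. Values are therefore also given without these libraries. Osteoblast and osteoclast markers were counted in every library, 7 of 7 genes each, as the bone label has it. Marker genes of other cells in the callus set SR-717 replicate 1 apart. All 8 neutrophil, 7 macrophage and 8 T and NK cell markers were highest there, and all 6 chondrocyte markers, 5 of 7 osteoblast and 4 of 7 osteoclast markers were lowest there.

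On the length-scaled TPM scale, which allows genes to be compared, the 3 JUN genes made up most of the family. Jund, whose product JunD is the steadily expressed JUN protein, had a median of 170 TPM over the 9 libraries, and Junb followed with 86.8 TPM. Fosl2 (60.1 TPM) and Jun (57.4 TPM) came next and did not differ in order, since Fosl2 was above Jun in 5 of 9 libraries. Fos had 35.97 TPM, Atf3 23.2, Batf 11.9, Fosb 3.33 and Fosl1 0.388. Apart from Fosl2 and Jun, each gene was above the next in at least 8 of 9 libraries, and Junb was above Fosl2 in 9 of 9, although the ranges of all neighbours overlapped. Jund was the first member in 8 libraries, and Junb was first in SR-717 replicate 1. The summed TPM of the 4 FOS genes was between 0.198 (PBS replicate 2) and 0.361 (SR-717 replicate 1) of that of the 3 JUN genes. All 9 members together summed to between 308 TPM (PBS replicate 3) and 761 TPM (SR-717 replicate 1).

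The level of each member in each library is given below in CPM, which are counts scaled to a common library total with TMM factors, and which serve to compare libraries for 1 gene. Fos was measured at 69.2, 25.6 and 26.3 CPM in PBS replicates 1 to 3, at 36.9, 56.1 and 40.4 CPM in the H-151 libraries, and at 110, 47.5 and 31.5 CPM in the SR-717 libraries. SR-717 replicate 1 and PBS replicate 1 were the highest, and the 3 groups overlapped. The group means were 40.4 ± 24.9 CPM for PBS, 44.5 ± 10.2 for H-151 and 63.0 ± 41.6 for SR-717 (SD, n = 3). Fosb, the closest relative of Fos, had another pattern. It stood at 26.3, 3.13 and 3.48 CPM with PBS, at 6.18, 39.6 and 6.06 CPM with H-151, and at 5.99, 6.01 and 6.89 CPM with SR-717. H-151 replicate 2 and PBS replicate 1 were thus far above the other 7 libraries, while SR-717 replicate 1, the highest library for Fos, was below the median of 6.06 CPM.

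Fosl1 was close to the limit of counting. Its expected counts were 70.33, 8.61 and 1.05 with PBS, 7.11, 21.5 and 3.1 with H-151, and 110.86, 3.29 and 5.42 with SR-717. In CPM, SR-717 replicate 1 (5.73) and PBS replicate 1 (4.00) were above H-151 replicate 2 (1.08), and the other 6 libraries lay between 0.0562 and 0.380. The expected counts of Fosl1 were not whole, and Fosl1 did not pass the filter on low counts in any of the 3 comparisons, so 8 of the 9 members were tested. Fosl2, the most even FOS gene, was at 309, 215 and 154 CPM with PBS, 189, 223 and 194 CPM with H-151, and 305, 179 and 210 CPM with SR-717. Its coefficient of variation over the 9 libraries was 24.4%, against 54.6% for Fos, 110% for Fosb and 152% for Fosl1. The 2 highest libraries were again replicates 1 of PBS and SR-717, which differed by less than 4 CPM.

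Among the JUN genes, Junb, whose product is often a weaker activator than c-Jun, was at 174, 79.0 and 61.3 CPM with PBS, 79.9, 94.8 and 66.3 CPM with H-151, and 273, 75.1 and 75.3 CPM with SR-717. The 2 first replicates of PBS and SR-717 were the only libraries above 100 CPM. Jun, which encodes c-Jun, was at 146, 110 and 50.6 CPM with PBS, 80.7, 172 and 107 CPM with H-151, and 148, 97.5 and 98.1 CPM with SR-717. Its highest library was H-151 replicate 2, followed closely by the first replicates of SR-717 and PBS. Jund was at 210, 256 and 120 CPM with PBS, 138, 201 and 141 CPM with H-151, and 152, 123 and 172 CPM with SR-717. PBS replicate 2 was highest for Jund, and SR-717 replicate 1 was at its median.

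Atf3, a stress-induced factor that can repress as well as activate, was at 39.1, 24.6 and 14.4 CPM with PBS, 25.3, 24.3 and 21.5 CPM with H-151, and 57.3, 20.8 and 21.2 CPM with SR-717. Batf, which has no activation domain of its own and is best known from T and B cells, was at 11.4, 5.75 and 6.41 CPM with PBS, 5.84, 5.37 and 5.73 CPM with H-151, and 33.8, 5.82 and 4.73 CPM with SR-717. For both genes SR-717 replicate 1 was highest and PBS replicate 1 second. Outside these 2 libraries Batf ranged only from 4.73 to 6.41 CPM, and SR-717 replicate 1 was 5.80 times the median of the 9 libraries. Over all members, SR-717 replicate 1 was the highest library for 5 of 9 and among the 2 highest for 7 of 9, PBS replicate 1 was among the 2 highest for 8 of 9, and PBS replicate 3 was the lowest for 6 of 9.

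**Figure D1:**
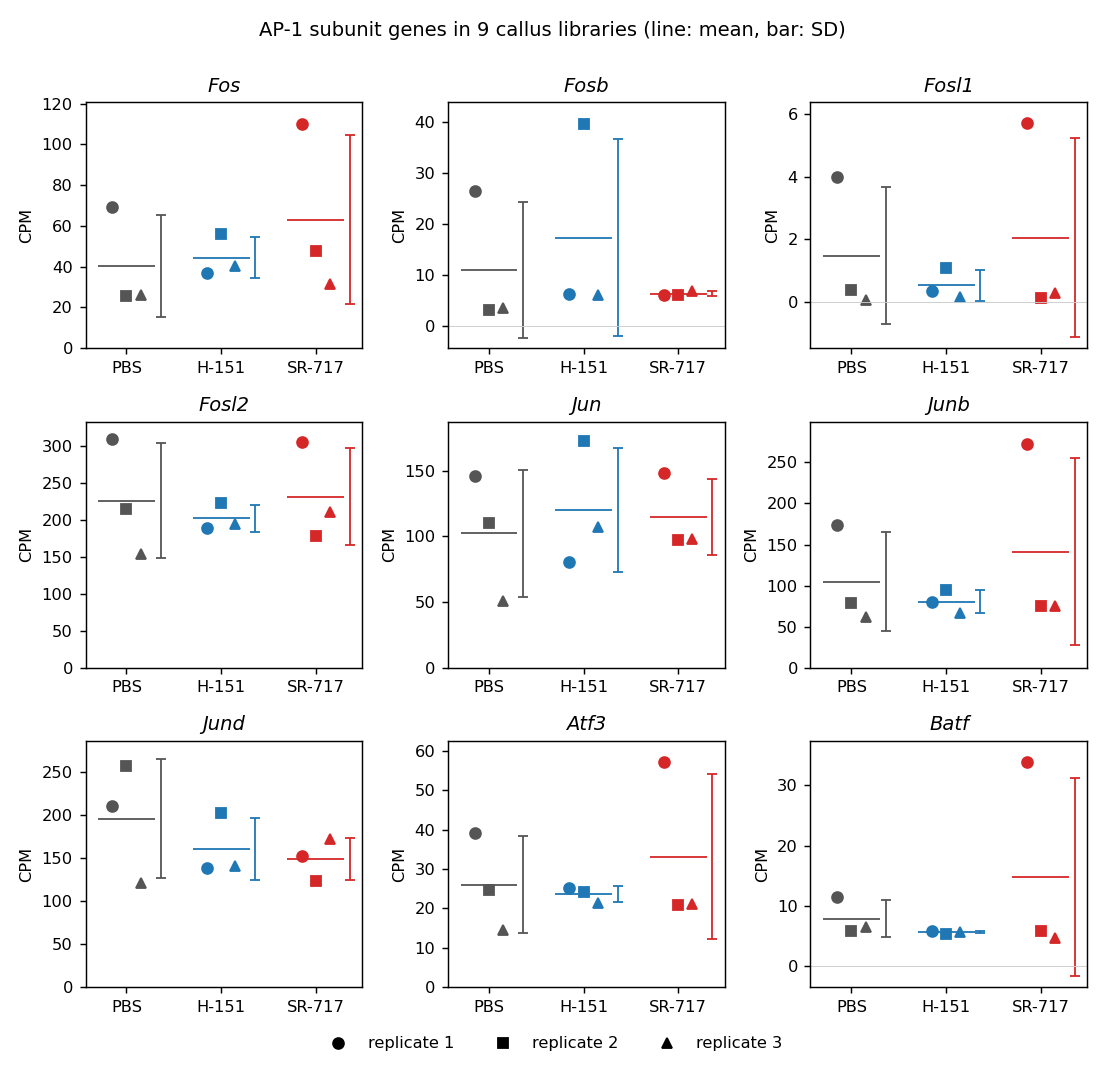
CPM of each of the 9 AP-1 genes (vertical axis, linear) in the PBS, H-151 and SR-717 groups; each symbol is a library with its shape giving the replicate number, the horizontal line is the group mean and the bar to its right the mean ± SD (n = 3). Replicate 1 of SR-717 or of PBS is the top symbol for Fos, Fosl1, Fosl2, Junb, Atf3 and Batf, whereas H-151 replicate 2 is highest for Fosb and Jun and PBS replicate 2 for Jund.

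Marker genes of other cells moved in part with these levels. The summed neutrophil markers were 14065 CPM in SR-717 replicate 1 and between 561 and 4416.5 CPM in the other 8 libraries, and the summed macrophage markers were 8745 CPM there and between 3106 and 5032 CPM elsewhere. Of the cells in which Batf is best known, T cells were counted with NK cells. T and NK cell markers summed to 69.3 CPM in SR-717 replicate 1 and to between 15.3 and 35.4 CPM in the others. B cell markers went the other way. They summed to 10.2 CPM in SR-717 replicate 1, 6.62 CPM in PBS replicate 1 and between 10.3 and 57.9 CPM in the others. Chondrocyte markers summed to 246 CPM in SR-717 replicate 1, 1434 CPM in PBS replicate 1 and between 4242 and 14308 CPM in the other 7. None of these marker genes was at 0 in all libraries. PBS replicate 1 had the second highest macrophage sum (5032 CPM), as it had the second highest level of Junb. Its neutrophil sum, 3392 CPM, was the fifth highest, below those of H-151 replicates 1 and 2 (4416.5 and 4298 CPM) and SR-717 replicate 2 (3664 CPM). The part of these cells in the levels of the AP-1 genes was not tested.

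Whether activating STING changed the AP-1 genes was asked by comparing SR-717 with PBS. Fos, Junb and Batf were higher on average with SR-717 and Fosb and Jund were lower. In each of them the 2 groups overlapped, and none of these differences passed the test. By edgeR's quasi-likelihood test with Benjamini-Hochberg adjustment, 0 of 8 members tested passed an adjusted p of 0.05, as did 0% of the 14070 genes tested. At an unadjusted p under 0.05, 0 members passed with a 1.5-fold change or without one, against 0.519% of all genes with the fold and 0.689% without, and DESeq2's Wald test likewise had 0 members below 0.05, against 1.27% of all genes. The log2 fold change of Fos was 0.64 (SE 0.59), that of Junb 0.43 (SE 0.64) and that of Batf 0.91 (SE 0.80). Fosb had a log2 fold change of -0.80 (SE 0.84) and Jund of -0.40 (SE 0.30). Fosl2, Jun and Atf3 had log2 fold changes of 0.03, 0.17 and 0.34. The adjusted p of every member tested was 0.9999 in this edgeR test. In no member were the 2 groups free of overlap, against 3.75% of all genes tested.

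These fold changes turned on single libraries. Without SR-717 replicate 1, the log2 fold change was -0.03 for Fos, -0.48 for Junb, -0.32 for Atf3 and -0.57 for Batf, so that all 4 were no longer above 0. Without PBS replicate 1, it was 1.28 for Fos and 0.93 for Fosb (edgeR adjusted p = 0.997), which turned the direction of Fosb and put 1 of 8 members past the unadjusted thresholds, where 0.823% of all genes were. Without PBS replicate 3, Jund had a log2 fold change of -0.65 (edgeR adjusted p = 0.9999), the only member past these thresholds, against 0.661% of all genes. Without replicate 1 of both groups, Fosb was again the 1 member past them, with a log2 fold change of 0.98 (edgeR adjusted p = 1.000) and 0.833% of all genes past them.

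The labels number the replicates but state no pairing of libraries. The numbers were taken as pairs from correlations in these same data, so the pairing is an assumption. Fos was the member in which it changed the call. Within the same number, Fos was higher with SR-717 in 3 of 3 pairs, by 0.67, 0.89 and 0.26 on the log2 scale. With the replicate number as a block, edgeR gave Fos a log2 fold change of 0.61 with an SE of 0.18 in place of 0.59 (adjusted p = 0.999). Fos was then the 1 member of 8 past an unadjusted p of 0.05 with a 1.5-fold change, and 2.43% of all genes were past these thresholds in the same direction (342 genes, against 38 without the block) and 0.718% in the other (101 genes, against 35). In the same fit all 8 neutrophil markers were past these thresholds as higher (median log2 fold change 1.55) and 5 of 6 chondrocyte markers as lower (median -1.09), and the part of these cells in the value of Fos was not tested. No other member was higher in 3 of 3 pairs. The share of all genes that were higher in 3 of 3 pairs was not counted. The differences of Fosb were -2.12 in the first pair and 0.92 and 0.96 in the others.

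**Figure D2:**
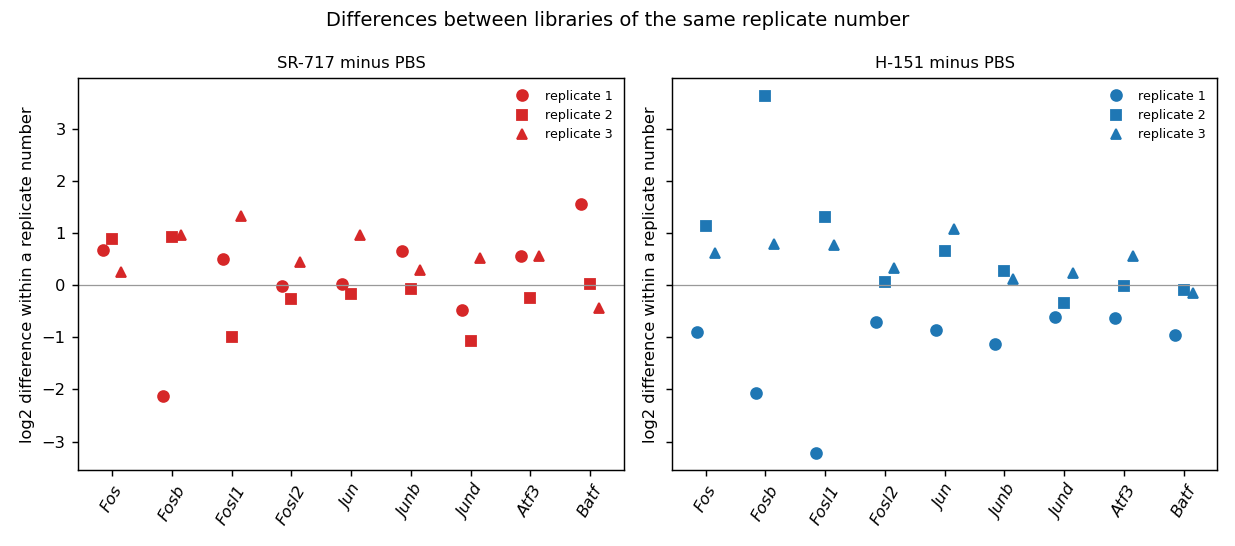
Log2 difference in CPM (vertical axis, log2 of CPM + 0.1) between libraries of the same replicate number for the 9 AP-1 genes, with SR-717 minus PBS on the left and H-151 minus PBS on the right; each symbol is 1 pair, and both panels use the same PBS libraries. On the left the 3 symbols of Fos all lie above 0 (0.67, 0.89 and 0.26), and on the right the first pair lies below 0 for every gene.

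Whether blocking STING changed the AP-1 genes was asked by comparing H-151 with the same PBS libraries. Within the H-151 group the coefficient of variation was 4.27% for Batf, 8.34% for Atf3 and 9.09% for Fosl2 but 112% for Fosb, and no shift from PBS passed the test. By edgeR's quasi-likelihood test, 0 of 8 members passed an adjusted p of 0.05 (0% of 14085 genes), and 0 passed an unadjusted p of 0.05, with a 1.5-fold change (0.426% of all genes) or without (0.646%). DESeq2's Wald test had 0 members at an unadjusted p under 0.05, against 0.887% of all genes. The log2 fold change was 0.14 for Fos (SE 0.41), 0.66 for Fosb (SE 1.07), 0.23 for Jun (SE 0.43), -0.38 for Junb (SE 0.39) and -0.47 for Batf (SE 0.30). Fosl2, Jund and Atf3 had values of -0.16, -0.29 and -0.14. Every member had an adjusted p of 0.9999 in this edgeR test. The groups overlapped in every member, against 3.87% of all genes without overlap.

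PBS replicate 1 set the direction of several members here. Without it, Fos had a log2 fold change of 0.79 (SE 0.22, edgeR adjusted p = 0.9997) and was the 1 member of 8 past the unadjusted thresholds, with 0.808% of all genes past them. Fosb then had a log2 fold change of 2.40 (SE 1.00), and Fosl2, Junb and Atf3 moved from below 0 to 0.14, 0.21 and 0.28. Without replicate 1 of both groups, Fos (0.92) and Fosb (2.81) were both past the unadjusted thresholds, as were 0.538% of all genes. Without H-151 replicate 2, the value of Fosb was -0.84. In the first pair of libraries all 9 members were lower with H-151, and in the third pair 8 of 9 were higher. With the replicate number as a block, 0 of 8 members passed the unadjusted thresholds, where 1.43% of all genes were higher (201 genes, against 37 without the block) and 0.433% lower (61 genes, against 23).

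Activation was set directly against inhibition by comparing SR-717 with H-151. Batf and Junb had the largest positive differences and Fosb the largest negative one, and again none passed. By edgeR's quasi-likelihood test 0 of 8 members passed an adjusted p of 0.05 (0% of 14151 genes), 0 had an unadjusted p under 0.05 (1.03% of all genes) and so 0 passed with a 1.5-fold change (0.756%). DESeq2's Wald test also had 0 members below 0.05, against 1.99% of all genes. The log2 fold change was 1.38 for Batf (SE 0.77), 0.80 for Junb (SE 0.54), 0.49 for Fos (SE 0.47) and 0.47 for Atf3 (SE 0.42). It was -1.47 for Fosb (SE 0.78), and 0.18, -0.08 and -0.12 for Fosl2, Jun and Jund. The adjusted p of every member was 0.996 in this edgeR test. The groups overlapped in every member, against 5.18% of all genes without overlap.

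Without SR-717 replicate 1 the values of Batf, Junb, Fos and Atf3 became -0.10, -0.10, -0.18 and -0.18. Without H-151 replicate 2 that of Fosb became 0.03. These 5 differences thus rested on 1 library each. Leaving out H-151 replicate 1 or 3 put Fosb past the unadjusted thresholds (log2 fold change -1.87 in both), with 0.656% and 1.06% of all genes past them, and leaving out SR-717 replicate 3 did so for Batf (1.80), with 4.6% of all genes past them. No adjusted p of a member was under 0.05 in any of these edgeR fits.

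**Figure D3:**
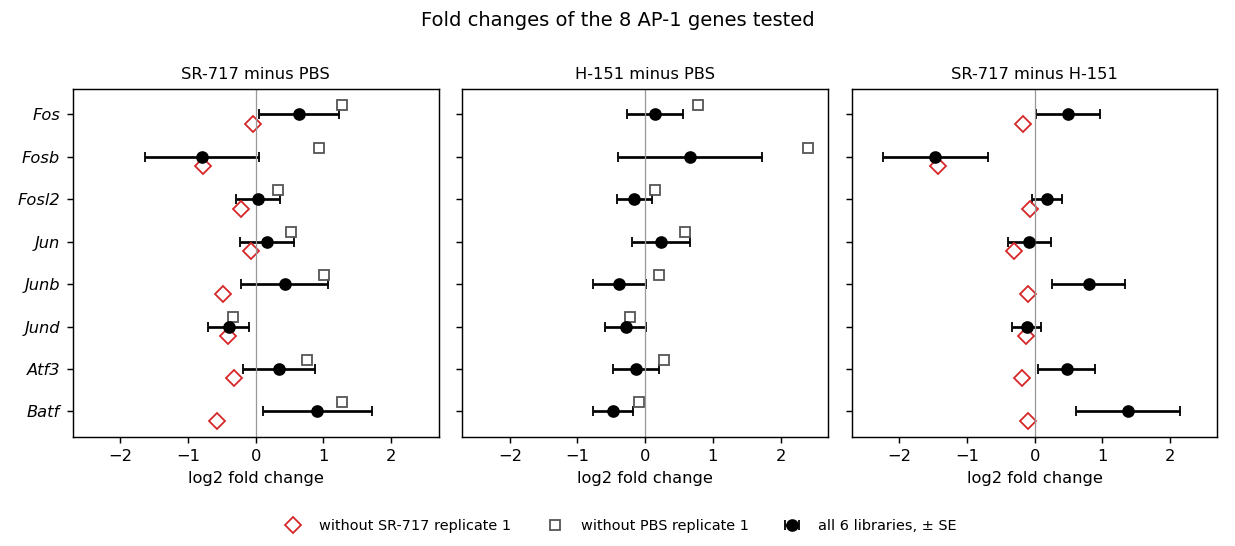
Log2 fold change (horizontal axis) of the 8 AP-1 genes tested in 3 comparisons; black points are edgeR estimates from 6 libraries with their SE, red diamonds the estimates without SR-717 replicate 1 and grey squares those without PBS replicate 1. The diamonds of Fos, Junb, Atf3 and Batf lie at or below 0 in both comparisons with SR-717 (Junb from 0.80 to -0.10 against H-151), and the squares of Fos and Fosb lie at or above 0.79 in both comparisons with PBS.

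The members were also compared with each other across the libraries. Of the 36 pairs of members, 35 had a Pearson r of log2 CPM above 0 over the 9 libraries, and 16 had an r with an adjusted p under 0.05 by an exact permutation test over all orders of the libraries, adjusted over the 36 pairs. This test treats the 9 libraries as exchangeable. Most same-numbered libraries of PBS and a treated group deviated together, so its p-values may be too small. Those of SR-717 and H-151 did so less. By Spearman's rho 8 pairs passed, and 7 passed by both. Without SR-717 replicate 1, 7 pairs passed by r, and without PBS replicate 1, 6 did. Both figures are from tests of 8 libraries. The first principal component of all genes (46.6% of the variance) also set these 2 libraries apart. The share of all gene pairs that correlate in this way was not measured. The counts therefore cannot be called particular to the AP-1 genes. Fosl1, Fosl2, Junb and Atf3 formed the 5 pairs that passed by r, by rho and by r without SR-717 replicate 1, and they lacked only the pair of Fosl2 and Atf3.

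Fosl1 and Junb had the smallest p, with r = 0.96 (exact permutation, two-sided p = 4.13e-05, adjusted p = 0.00149) and rho = 0.97 (exact permutation p = 1.65e-04, adjusted p = 0.00595). Without the 2 libraries farthest from the median of Fosl1, r was 0.94. The expected counts of Fosl1 in 7 libraries lay between 1.05 and 21.5, so its position there has a wide counting error. Junb and Atf3 had r = 0.96 (exact permutation adjusted p = 0.00164) and rho = 0.90 (adjusted p = 0.0146), with r = 0.79 without the 2 farthest libraries. Fosl2 and Junb had r = 0.92 (exact permutation adjusted p = 0.00524) and rho = 0.85 (adjusted p = 0.0364), with r = 0.78 without them. In each case the 2 farthest libraries were the first replicates of SR-717 and PBS.

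Some other pairs fell further without those 2 libraries. Batf and Junb had r = 0.92 (exact permutation adjusted p = 0.0294) but rho = 0.37 (adjusted p = 0.466), and r was -0.46 without them. Fos and Junb had r = 0.89 (exact permutation adjusted p = 0.00689) and rho = 0.67 (adjusted p = 0.163), and r was 0.55 without them. Fos and Fosb went the other way. Their r was 0.52 (exact permutation adjusted p = 0.212) with rho = 0.47 (adjusted p = 0.348). Without SR-717 replicate 1, r was 0.87 (exact permutation adjusted p = 0.0230), but rho was 0.74 (adjusted p = 0.15) and did not pass. In the library left out Fos was highest and Fosb was not raised. Fosl2 and Jun had r = 0.80 (exact permutation adjusted p = 0.0294) and rho = 0.90 (adjusted p = 0.0146), and r = 0.88 without the 2 farthest libraries. Jund and Batf were the 1 pair with an r below 0 (-0.01, exact permutation adjusted p = 0.977, rho = -0.22, adjusted p = 0.654).

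**Figure D4:**
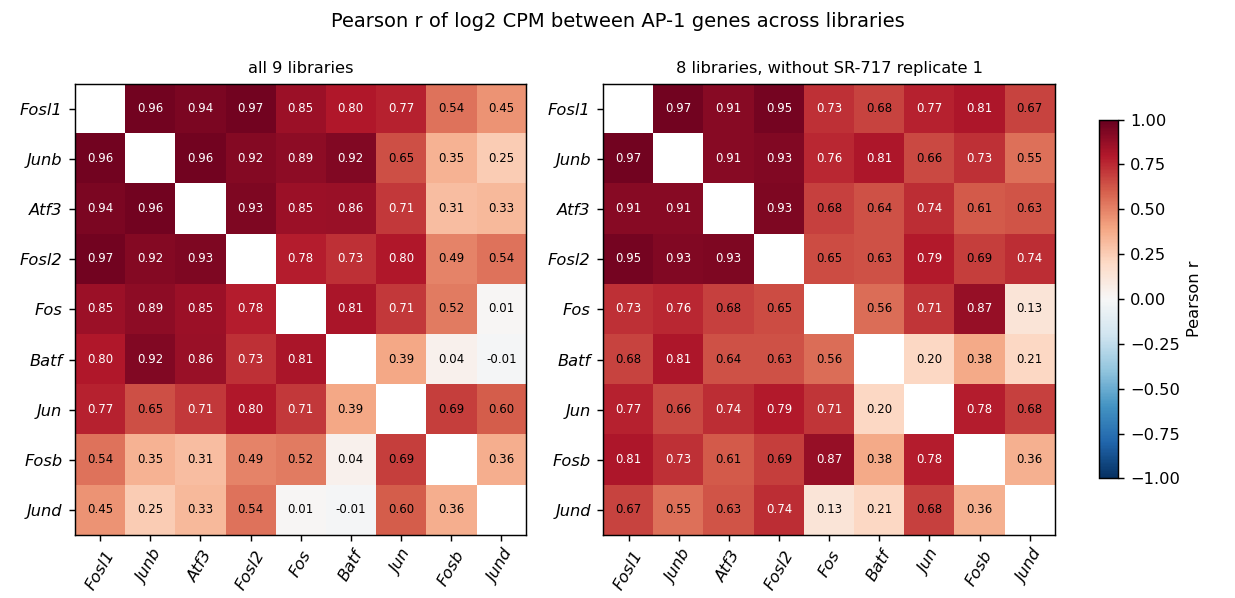
Pearson r of log2(CPM + 0.1) between each 2 of the 9 AP-1 genes (both axes), over 9 libraries on the left and over 8 without SR-717 replicate 1 on the right; the colour scale runs from -1 (blue) to 1 (red). Among Fosl1, Junb, Atf3 and Fosl2 the lowest r in either panel is 0.908 (Junb and Atf3, right), and Fos and Fosb go from 0.52 to 0.87.

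The genes most like each member in pattern were sought by r among 13500 other genes with a mean of at least 1 CPM. These are descriptions over the same 9 libraries, chosen as the highest of many. Jun was nearest to Sik1, a salt-inducible kinase gene (r = 0.99), and to Nr4a1, an immediate early nuclear receptor gene (r = 0.95), which was at 150 CPM in H-151 replicate 2 and 15.7 CPM in PBS replicate 3, the highest and the lowest library of Jun too. Junb was nearest to Csrnp1 (r = 0.99) and to Cebpb (r = 0.99), a leucine zipper factor gene of the inflammatory response, which was at 321 CPM in SR-717 replicate 1, 161 CPM in PBS replicate 1 and between 26.8 and 55.6 CPM elsewhere. Fosl1 was nearest to Ier3 (r = 0.99) and Cebpd (r = 0.98), and Fosl2 to Cebpd (r = 0.97) and Tmub2 (r = 0.96). Fos was nearest to Il13ra2, a decoy receptor gene for IL-13 (r = 0.97), and Exoc1 (r = 0.95). Fosb was nearest to 4930523C07Rik (r = 0.93) and Rgs16 (r = 0.87), Jund to H2aj and Apba3 (both r = 0.94), Atf3 to Numb (r = 0.99) and Tmcc1 (r = 0.98), and Batf to Pak2 and Fnip2 (both r = 0.99).

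The other genes of the pathway were taken in 5 lists. Of 12 further leucine zipper partners, none had an edgeR p under 0.05 in any comparison without the replicate block. With the block 1 of 12, Batf2, was past the unadjusted thresholds for SR-717 against PBS (log2 fold change 1.24, edgeR adjusted p = 0.999). Of all genes, 0.646% to 1.03% had an edgeR p under 0.05 without the block. With it, 2.43% were past the thresholds as higher for SR-717 against PBS. Batf2 and the other genes given for the block alone were named after their values were seen. The list's median log2 fold change was -0.01 for SR-717 and -0.11 for H-151 against PBS. The most abundant by CPM was Atf4, of the integrated stress response (252 CPM on average). Of 10 kinases and regulators upstream, among them Mapk3, a MAP kinase gene (153 CPM on average), none passed without the block, with medians of 0.10 and 0.01, and Map3k8, an inflammatory MAP kinase kinase kinase gene, passed with it for SR-717 against PBS (1.12, edgeR adjusted p = 0.999). The medians of the 8 AP-1 members tested were 0.26 for SR-717 and -0.15 for H-151, beside 0.01 and -0.02 for all genes tested. The first was -0.36 without SR-717 replicate 1 and 0.84 without PBS replicate 1, and the second 0.24 without PBS replicate 1.

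Of 15 other immediate early genes, 1 was past the unadjusted thresholds for SR-717 against PBS (0.519% of all genes) and 1 for H-151 against PBS (0.426%), and both times it was Egr2, a zinc finger factor that acts in macrophages and osteoclasts. Egr2 was at 6.28, 5.12 and 4.55 CPM with PBS, at 8.04, 8.58 and 10.3 CPM with H-151 and at 7.95, 10.3 and 7.42 CPM with SR-717, so that all 6 treated libraries were above the 3 PBS libraries, a lack of overlap that 3.75% and 3.87% of all genes had in the 2 comparisons. Its log2 fold change was 0.69 with SR-717 (SE 0.25, edgeR adjusted p = 0.9999) and 0.75 with H-151 (SE 0.22, edgeR adjusted p = 0.9999), against the same PBS libraries. With the block, Dusp1, a MAP kinase phosphatase gene, was past the thresholds as well for SR-717 (0.89, edgeR adjusted p = 0.999). This made 2 of 15 genes higher, beside 2.43% of all genes. Egr2 stayed past the thresholds in both comparisons with the block and without PBS replicate 1, and for SR-717 without SR-717 replicate 1. Without replicate 1 of both groups, Egr1 (0.78) and Ccn1 (1.78) were past them too for H-151 against PBS, 3 of 15 genes beside 0.538% of all genes. The list's median was 0.51 with SR-717 and -0.06 without SR-717 replicate 1, and 0.14 with H-151. SR-717 replicate 1 was highest for 8 of the 15, such as Socs3, a feedback inhibitor of cytokine receptors (390 CPM there, 212 in PBS replicate 1 and 38.7 to 74.4 CPM elsewhere). H-151 replicate 2 was highest for 3, such as Ccn1, a matrix protein gene (360 CPM there and 60.9 to 118 CPM elsewhere), and PBS replicate 3 was lowest for 9.

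Of 13 genes known as AP-1 targets, 12 were tested. Il6, named here after its values were seen, did not pass the filter, and was at 13.1 CPM in PBS replicate 1, 9.71 CPM in SR-717 replicate 1 and between 0 and 1.23 CPM elsewhere. Mmp10, the gene of stromelysin 2, was the 1 past the unadjusted thresholds without the block. It passed for H-151 against PBS (0.426% of all genes) and for SR-717 against H-151 (0.756%). It was at 6.28, 2.11 and 3.82 CPM with PBS, at 1.37, 0.74 and 1.83 CPM with H-151 and at 19.1, 2.63 and 2.04 CPM with SR-717. All H-151 libraries were below all others, a lack of overlap that 3.87% and 5.18% of all genes had in these comparisons. Mmp10 fell by 1.62 on the log2 scale with H-151 against PBS (SE 0.51, edgeR adjusted p = 0.9999), and was 2.58 higher with SR-717 than with H-151 (SE 0.96, edgeR adjusted p = 0.996). Each call was lost when 1 library was left out, although the difference kept its direction. Without PBS replicate 1 the first was -1.16, and without SR-717 replicate 1 the second was 0.83, and neither was then past the thresholds. With the block 2 of 12 genes were past them as lower for H-151 against PBS, Mmp10 (-1.59) and Mmp13 (-0.69, a collagenase gene), and 2 as higher for SR-717 against PBS, Ccl2 (0.75) and Mmp3 (0.71), all with an edgeR adjusted p of at least 0.999. All genes past the thresholds in those directions made up 0.433% and 2.43%. Without SR-717 replicate 1, Ptgs2, the gene of cyclooxygenase 2, was lower with SR-717 than with H-151 past the thresholds (-1.14, edgeR adjusted p = 0.9997), beside 1.05% of all genes. The list's median log2 fold change was 0.32 for SR-717 against PBS, -0.58 without SR-717 replicate 1 and 0.75 without PBS replicate 1. Each of these 2 libraries was among the 2 highest for 10 of the 13 genes. Spp1, which encodes osteopontin, and Mmp9, an osteoclast and neutrophil protease gene, were the most abundant by CPM, at 3077 and 2617 CPM on average.

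Of 10 genes of RANKL signaling and the osteoclast, none passed the unadjusted thresholds in any comparison, with the block or without. Few genes of any kind did. Without the block 0.519% of all genes passed for SR-717 against PBS, 0.426% for H-151 against PBS and 0.756% for SR-717 against H-151. A count of 0 of 10 therefore says little about this list. Ctsk (cathepsin K, 3152 CPM on average) and Acp5 (TRAP, 2271 CPM) led the list. SR-717 replicate 1, the highest library of Fos, was the lowest for 6 of the 10, with Ctsk at 1988 CPM there and between 2226 and 4346 CPM in the others. The list's median log2 fold change was -0.16 for SR-717 and -0.21 for H-151 against PBS, and 0.06 for SR-717 against H-151. Without SR-717 replicate 1, it was 0.03 for SR-717 against PBS and 0.23 for SR-717 against H-151.

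**Figure D5:**
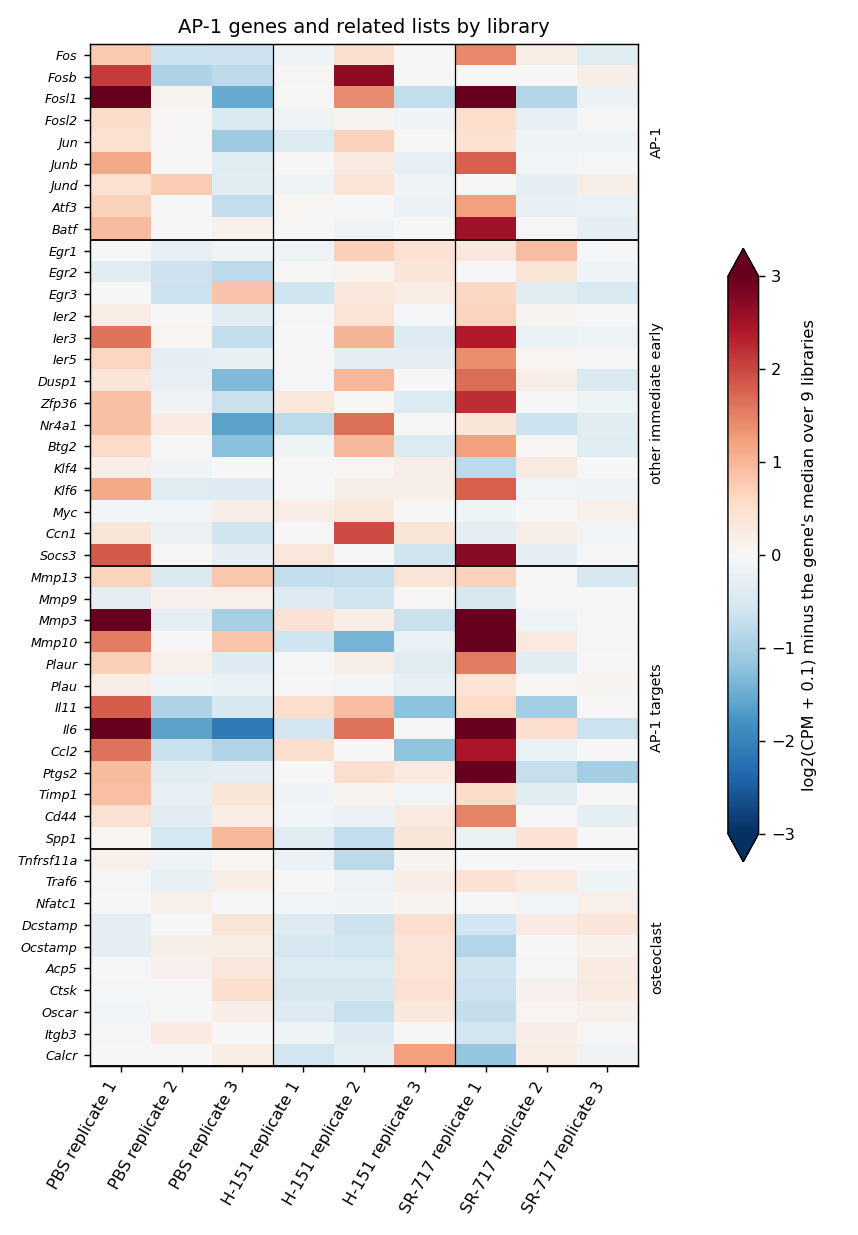
Log2(CPM + 0.1) minus the gene's median over 9 libraries (colour, red above and blue below, clipped at -3 and 3) for the AP-1 genes and 3 related lists (rows) in each library (columns, in the order PBS, H-151, SR-717). The columns of PBS replicate 1 and SR-717 replicate 1 are red for most AP-1 genes, other immediate early genes and AP-1 targets, and SR-717 replicate 1 is blue for most osteoclast genes.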

How the data were processed

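Callus RNA of 9 libraries was sequenced (poly(A), strand-specific, paired ends). The authors deposited estimated counts, that is expected counts per gene with no normalization, and TPM values scaled for gene length and to a common library total, for 22054 genes. Of these expected counts 8.91% were not whole, and they were rounded before testing. The submitters' processing notes name the build mm10, and the aligner, counter and annotation are not given in the sources used here. Groups and replicate numbers come from the labels, which do not say whether libraries came from separate mice, so p-values measure the spread between libraries, which may be technical.

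Tests used edgeR 4.0.16 in R 4.3.3 on all genes of the 6 libraries of 2 groups (filterByExpr with a count of 10 and a total of 15, TMM, glmQLFit and glmQLFTest) with Benjamini-Hochberg adjustment, and thresholds of an adjusted p of 0.05, or of an unadjusted p of 0.05 with a 1.5-fold change. SEs were derived from the F statistic. DESeq2 1.42.0 was an alternative, and the procedure was tested on simulated data. Levels were log2(CPM + 0.1). The members and gene lists were chosen with earlier results of these data known. Named were the 9 members, list genes with an edgeR p under 0.05 (up to 3 per list and comparison), the 2 genes of each list with the highest mean CPM, and the 2 genes most like each member. Some genes that this rule names are not reported here.

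Pairing was checked by correlating deviations from the group means between same-numbered libraries. In SR-717 and PBS these were 0.65, 0.34 and 0.14, and in H-151 and PBS 0.30, 0.49 and 0.50. All were over 0.1, although in the third pair of SR-717 and PBS a library of another number correlated better (up to 0.34). The numbers come from the labels, which state no pairing, and were taken as pairs on these same data. Deviations from a group mean cancel out within the group, which pushes correlations between other numbers down when same-numbered libraries correlate. The check therefore cannot establish that the libraries were paired. Alternatives were DESeq2 size factors, other filters on low counts, 1 fit of all libraries, the replicate block, and leaving out each library or both first replicates.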

Additional observations from a re-analysis of the deposited data

How the results depend on the processing

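No member had an adjusted p under 0.05 by edgeR or DESeq2 in any alternative. Of 312 log2 fold changes of members under the alternatives, 272 kept their direction and 40 reversed, all by leaving out libraries. Without replicate 1 of both groups, the log2 fold change of SR-717 against PBS became 0.98 for Fosb and -0.18 for Batf, that of H-151 against PBS 0.20 for Fosl2, 0.22 for Junb and 0.25 for Atf3, and that of SR-717 against H-151 -0.30 for Fos, -0.11 for Fosl2, -0.11 for Junb, -0.14 for Atf3 and -0.083 for Batf. The members past the unadjusted thresholds were then 1 against PBS with SR-717 (Fosb) and 2 with H-151 (Fos and Fosb), and 1 with SR-717 under the replicate block (Fos). The cause was not tested.

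With 1 library left out, 0 to 1 members were past the unadjusted thresholds in each comparison, and 6 to 20 pairs of members were correlated, 16 with all libraries. For SR-717 against PBS, the log2 fold changes ranged from -0.034 to 1.28 for Fos, -1.26 to 0.93 for Fosb, -0.22 to 0.33 for Fosl2, -0.16 to 0.51 for Jun, -0.48 to 1.01 for Junb, -0.65 to -0.16 for Jund, -0.32 to 0.76 for Atf3, and -0.57 to 1.33 for Batf. For H-151 against PBS they ranged from -0.095 to 0.79 for Fos, -0.84 to 2.40 for Fosb, -0.37 to 0.14 for Fosl2, -0.12 to 0.59 for Jun, -0.65 to 0.21 for Junb, -0.54 to -0.035 for Jund, -0.43 to 0.28 for Atf3 and -0.65 to -0.095 for Batf. For SR-717 against H-151 they ranged from -0.18 to 0.82 for Fos, -1.87 to 0.032 for Fosb, -0.065 to 0.34 for Fosl2, -0.30 to 0.28 for Jun, -0.10 to 1.10 for Junb, -0.23 to 0.084 for Jund, -0.18 to 0.72 for Atf3 and -0.10 to 1.80 for Batf.

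The replicate block changed no call of a member but that of Fos. Same-numbered libraries of SR-717 and H-151 correlated less (0.34, 0.06 and 0.08, of which 1 was the best for its library). Numbers that pair each treated group with PBS would pair the treated groups too, so the pairing did not hold evenly across the groups. For SR-717 against H-151 the block moved the counts of all genes past the unadjusted thresholds from 52 higher and 55 lower to 88 and 55. In other alternatives, counts of all genes past these thresholds also moved. They went from 38 higher and 35 lower for SR-717 against PBS to 141 and 53 with no filter, 20 and 17 at a mean count of at least 50, 93 and 45 by DESeq2's Wald test, 117 and 59 with all 9 libraries in 1 fit and 82 and 36 without both first replicates. They went from 37 and 23 for H-151 against PBS to 89 and 38 with no filter, 17 and 11 at a mean count of at least 50 and 44 and 39 by the Wald test, and from 52 and 55 for SR-717 against H-151 to 123 and 100, 37 and 24, and 147 and 62, with 109 and 62 in 1 fit of all libraries. With 1 library left out, they ranged from 60 to 261 higher and 24 to 108 lower for SR-717 against PBS (261 without SR-717 replicate 3), 30 to 482 and 13 to 216 for H-151 against PBS (482 and 216 without PBS replicate 2), and 19 to 544 and 36 to 170 for SR-717 against H-151 (544 without SR-717 replicate 3). Fosl1, with 1.05 to 21.5 expected counts in 7 libraries, was limited by depth.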
